A study of Homo sapiens with 4 samples.

Results

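The integrin and laminin subunit genes are the receptors and the ligands by which cells hold on to basement membrane, and 36 protein-coding genes of these families in the table were examined, out of 60234 genes. They were chosen by symbol, as ITGA, ITGB, LAMA, LAMB and LAMC genes, and comprised 18 integrin α, 7 integrin β and 11 laminin chain genes. The choice was made with earlier results of these data known, and other genes of these families are not reported here. Genes whose products only bind an integrin tail were left out. RNA was sequenced from NKX2.5:GFP cells, a human embryonic stem cell line in which GFP is read from the NKX2-5 locus of cardiac progenitors and cardiomyocytes. The cells were grown as embryoid bodies, directed to the cardiac lineage, and given 1 µM retinoic acid (RA) from day 4 to day 7 or the solvent DMSO (CTR). At day 31 each culture was sorted by GFP, which gave 4 populations, positive and negative with RA and without, that share the line and the protocol. One line and 1 differentiation per condition limit them as a model, and GFP marks only cells whose NKX2-5 locus is active.

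Each condition had 1 library, and no difference between conditions was tested. Ratios below carry 95% Clopper-Pearson intervals, which cover counting error and not the spread between cultures. The libraries of RA-treated GFP-positive, CTR GFP-positive and RA-treated GFP-negative cells held between 26222787 and 28643091 counted reads, and that of CTR GFP-negative cells held 4371101. Values are CPM, reads scaled to a common library size with TMM factors, which are not divided by gene length and so compare 1 gene between libraries, not 1 gene with another. A gene was counted as different where log2(CPM + 1) differed by at least 2-fold and its CPM reached 10 in either library. NKX2-5 itself was 40.9-fold (32.3 to 52.8) higher in GFP-positive than GFP-negative cells of the CTR cultures. The 6 cardiomyocyte markers summed to 13902 and 15724 CPM in GFP-positive cells and to 351 and 708 CPM in GFP-negative cells, RA first. As these are bulk samples, fewer cells of a type and less RNA per cell cannot be told apart.

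An integrin is a pair of 1 α and 1 β subunit that spans the membrane, holding matrix outside and the actin skeleton inside through talin and kindlin. A laminin is a cross-shaped trimer of 1 α, 1 β and 1 γ chain, and the α chain carries the main integrin-binding site. Cardiomyocytes are wrapped in a basement membrane and anchor to it at costameres, where integrin α7 with β1 and the dystroglycan complex bind laminin. Epithelia use integrin α6 with β4 in hemidesmosomes, which bind a laminin that holds the α3 and β3 chains. Fibroblasts carry the collagen receptors α1, α2 and α11.

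The 36 genes took 0.451% of reads in the GFP-positive library with RA, 0.411% without RA, and 0.745% and 0.930% of the GFP-negative libraries in the same order. In at least 1 library 29 of them reached 10 CPM, 19 integrins and 10 laminins. Of these 29 genes, 24 had their highest value in a GFP-negative library, 14 with RA and 10 without. The same share over all genes was not computed. Some of the 29, such as LAMA3 and ITGA4, reached 10 CPM only in a GFP-negative library, so nothing is read from this count. ITGA7, ITGB3 and LAMB2 were highest in RA-treated GFP-positive cells, and ITGA10 and LAMA2 in CTR GFP-positive cells. The summed laminin signal was 3219 and 2958 CPM in GFP-positive cells and 5092 and 6362 CPM in GFP-negative cells, RA first. The summed integrin signal was 1524 and 1146 CPM in GFP-positive cells and 2516 and 2292 CPM in GFP-negative cells, in the same order.

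**Figure D1:**
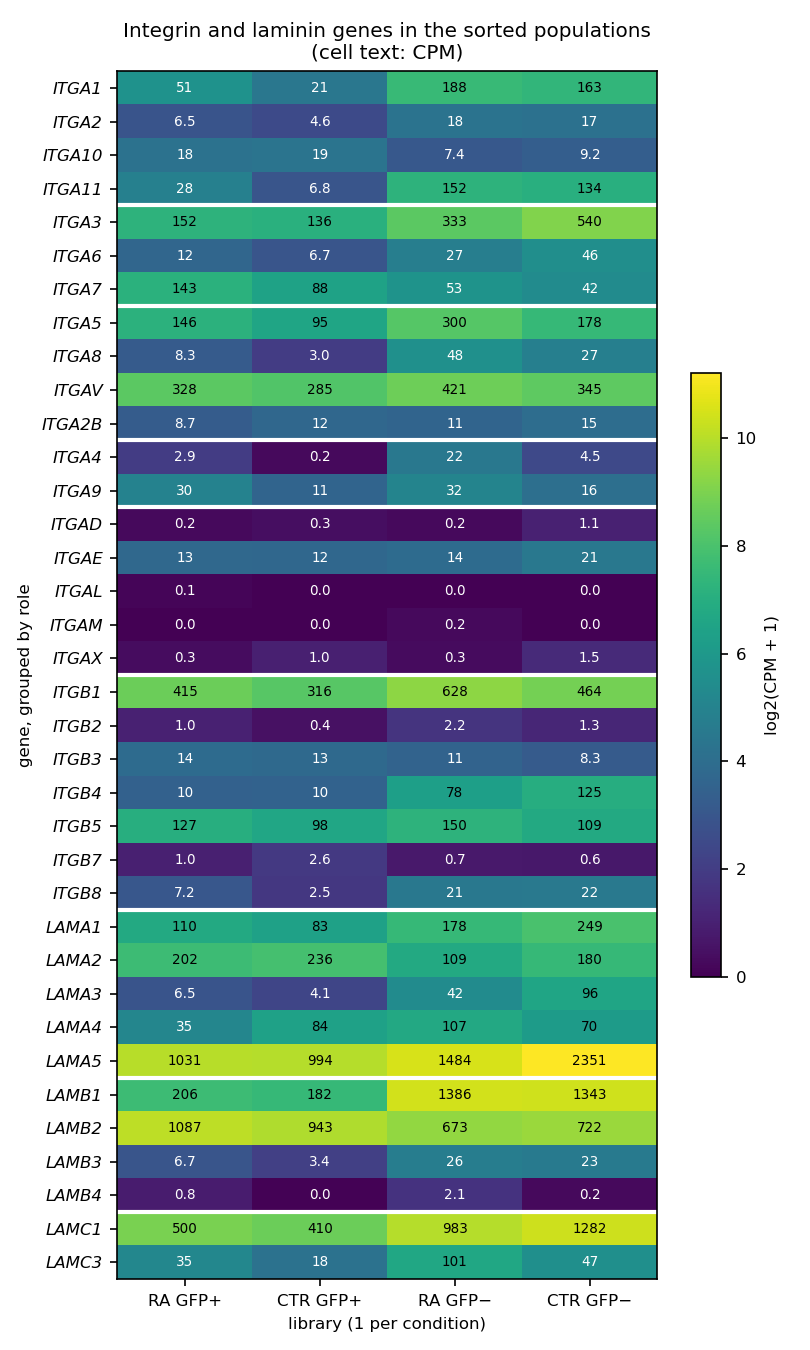
Heat map of log2(CPM + 1) for the 36 genes (rows, grouped by role) in the 4 libraries (columns), with the CPM written in each cell. Most rows are brighter in the GFP-negative columns, LAMB1 has 182 CPM and 1343 CPM in the CTR columns, and ITGA7 and LAMB2 run the other way.

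Most of the genes were lower in the GFP-positive fraction, and the muscle laminin receptor ITGA7 was higher there under both treatments. In CTR cultures 15 of the 28 genes that reached 10 CPM were lower in GFP-positive cells by at least 2-fold, against 13.3% of 11806 genes tested, and 1 was higher, against 11.9%. In RA-treated cultures 15 of 29 were lower, against 12.4% of 11850 genes, and 2 were higher, against 9.97%. The median difference of the members on the log2(CPM + 1) scale was -1.29 in CTR and -1.03 in RA-treated cultures, beside 0.08 and 0.02 over all genes tested. The 2 comparisons share no library. Of the 28 members at 10 CPM in both, 12 were lower in both, against 8.31% of 11249 genes, and 1 was higher in both, against 6.93%. They were the higher ITGA7 and the lower ITGA1, ITGA2, ITGA11, ITGA3, ITGA6, ITGA8, ITGB4, ITGB8, LAMA3, LAMB1, LAMB3 and LAMC3. Beside these differences, the 9 fibroblast and smooth muscle markers summed to 15749 and 4129 CPM in GFP-positive cells and to 62781 and 32768 CPM in GFP-negative cells, RA first. Under each treatment 7 of the 9 were lower in GFP-positive cells by at least 2-fold and 1 was higher, which passed 2-fold with RA only. The 5 epithelial markers summed to 580 and 499 CPM against 2257 and 1321 CPM. The 6 endothelial markers summed to 17.2 and 16.9 CPM against 288 and 300.3 CPM, and the 5 epicardium markers to 66.4 and 57.3 CPM against 342 and 574 CPM. All 5 genes at 10 CPM in each of these 2 lists were lower in GFP-positive cells by at least 2-fold under both treatments. The 5 gut and liver endoderm markers summed to 37.1 and 10.1 CPM against 635 and 81.6 CPM. The 5 pigment cell and neural crest markers summed to 79.4 and 99.6 CPM against 70.8 and 602 CPM, and the 5 neural markers to 416 and 276 CPM against 252 and 327 CPM. Both lists had lower sums in CTR and higher sums with RA, but with RA the neural sum did not follow most of its genes. In CTR 4 of 5 neural markers at 10 CPM were lower by at least 2-fold, with a median of -2.98 on the log2(CPM + 1) scale. With RA 2 of 3 were lower, 1 by at least 2-fold, and 1 was higher by at least 2-fold, with a median of -0.76. The part of all these markers in the member differences was not tested.

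**Figure D2:**
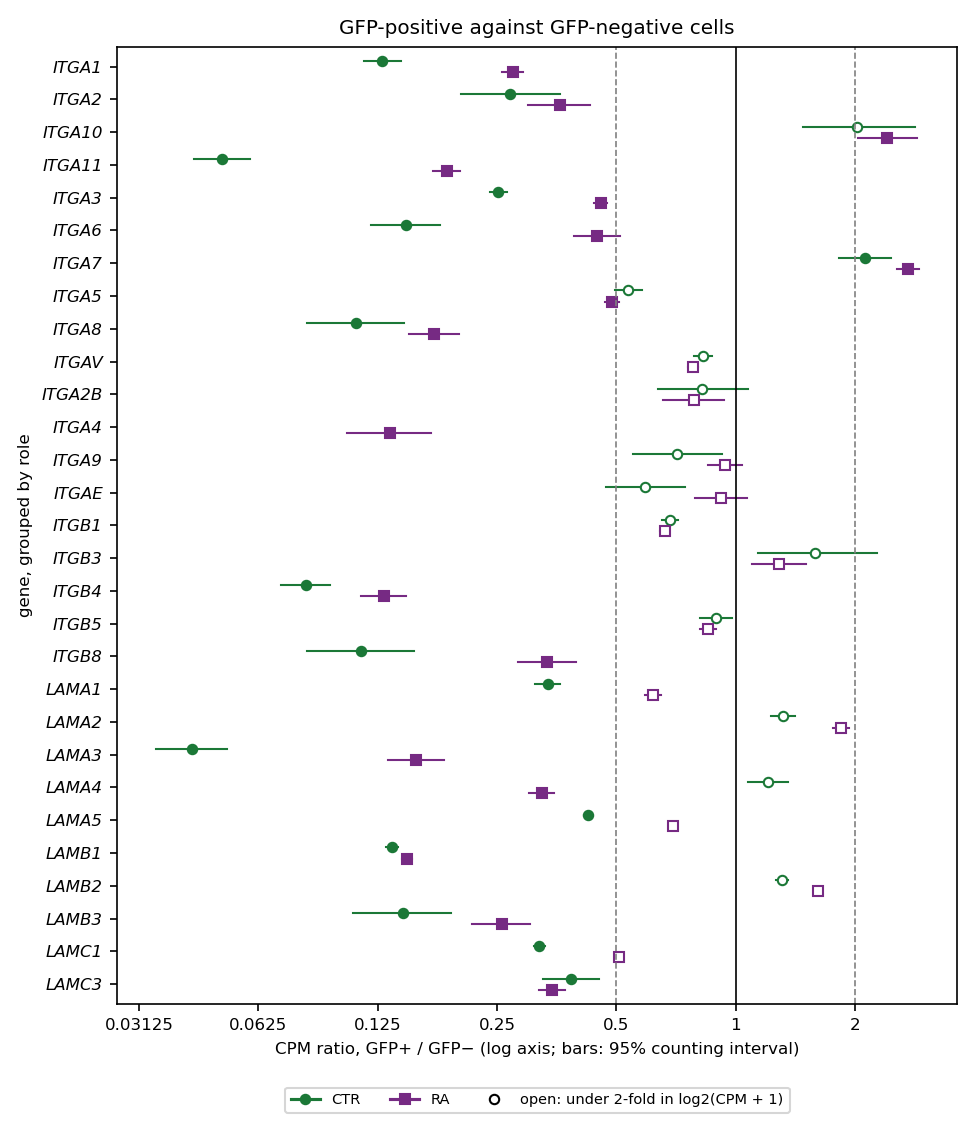
CPM ratio of GFP-positive to GFP-negative cells (log axis) for the genes at 10 CPM or more, in CTR (circles) and RA-treated cultures (squares), with 95% counting intervals. Filled symbols passed 2-fold on the log2(CPM + 1) scale, dashed lines mark ratios of 0.5 and 2, and the epithelial laminin chain LAMA3 and the fibroblast subunit ITGA11 lie far to the left while ITGA7 lies to the right.

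LAMB1 was lower in GFP-positive cells and took a smaller share of the laminin β signal there. LAMB1, the β chain of early and widespread laminins, had 206 CPM in RA-treated and 182 CPM in CTR GFP-positive cells, and 1386 CPM and 1343 CPM in the matching GFP-negative cells. It was thus 7.36-fold lower (7.10 to 7.64) in CTR and 6.74-fold lower (6.55 to 6.94) in RA-treated GFP-positive cells. LAMB2, the β chain found in mature muscle, synaptic and kidney basement membranes, had 1087 and 943 CPM in GFP-positive cells and 673 and 722 CPM in GFP-negative cells, RA first. Both GFP-positive libraries were above both GFP-negative libraries, by 1.31-fold (1.26 to 1.36) in CTR and 1.61-fold (1.58 to 1.65) in RA-treated cultures. Per kb of annotated exon, LAMB1 made up 6.64% of the laminin β signal of CTR GFP-positive cells and 39.6% of that of CTR GFP-negative cells, with 6.47% and 41.8% in the RA-treated cells. Per kb of the canonical transcript, which is much shorter for LAMB1, the shares were 16.2% and 64.2% in CTR and 15.9% and 66.2% in RA-treated cells. So LAMB2 led in GFP-positive cells by either length, whereas in GFP-negative cells the order of LAMB1 and LAMB2 turned with the length used. LAMB1 lies on the minus strand of chr7:107564244-107643658 and LAMB2 on that of chr3:49158547-49170551 (GRCh37).

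The 250 bases before the RefSeq start of LAMB1 and of LAMB2 (GRCh38.p14) are printed because these 2 chains lie on opposite sides of equality between the fractions, with GC boxes, the letters GGGCGG on either strand, in capitals.
LAMB1, chr7:108003162-108003411, minus strand: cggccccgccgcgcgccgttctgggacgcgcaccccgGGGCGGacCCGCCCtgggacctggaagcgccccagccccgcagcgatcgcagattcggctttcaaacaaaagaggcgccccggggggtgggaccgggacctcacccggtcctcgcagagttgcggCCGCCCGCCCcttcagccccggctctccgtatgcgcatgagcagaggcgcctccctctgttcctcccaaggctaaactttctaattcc
LAMB2, chr3:49133051-49133300, minus strand: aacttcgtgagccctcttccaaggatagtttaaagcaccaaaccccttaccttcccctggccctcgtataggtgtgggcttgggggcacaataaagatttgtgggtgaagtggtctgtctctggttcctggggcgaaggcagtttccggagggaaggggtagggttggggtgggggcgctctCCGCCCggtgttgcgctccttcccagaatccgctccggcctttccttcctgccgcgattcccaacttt
LAMB1 held 4 GC boxes, of which a pair overlap, and LAMB2 held 1. The GC content was 70.4% and 58.4%. Of the 25 members with a promoter in the RefSeq table, 14 held a GC box (56%), beside 46.2% of 27305 genes. The retinoic acid receptor half-site letters AGGTCA occurred in 2 of the 25, ITGAV and LAMA2 (8% beside 14.6% of all genes). CCAAT occurred in 5 (20% beside 37%) and TATAAA in 2, ITGA6 and ITGB1 (8% beside 13.0%). A match is a description of letters in this window only.

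The other β chains were low in GFP-positive cells. LAMB3, the β chain of the epithelial anchoring laminin, had 6.73 and 3.35 CPM in GFP-positive and 26.2 and 23.2 CPM in GFP-negative cells, RA first. It was 6.93-fold lower (5.22 to 9.21) in CTR GFP-positive cells and 3.90-fold lower (3.30 to 4.62) with RA. LAMB4, a β chain gene 20.3 kb from LAMB1 on the same strand, stayed below 10 CPM in every library. It had 21 reads with RA against 1 without in GFP-positive cells, a ratio of 22.5 (3.62 to 931), and 55 against 1 in GFP-negative cells, a ratio of 10.1 (1.73 to 405). Both wide intervals exclude equality, but each rests on 1 read in the CTR library.

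Among the laminin α chains, LAMA5, of the broadly expressed laminins, took most of the signal in every library. Its share per kb of annotated exon was between 76.4% and 82.5%, and per kb of canonical transcript between 65.9% and 76.6%. LAMA5 had 1031 and 994 CPM in GFP-positive cells and 1484 and 2351 CPM in GFP-negative cells, RA first. It was 2.36-fold lower (2.31 to 2.42) in CTR GFP-positive cells and 1.44-fold lower (1.42 to 1.46) with RA, so that it passed 2-fold in CTR only, a difference between the treatments that was not tested. LAMA3, the epithelial α chain, had 6.51 and 4.08 CPM in GFP-positive cells against 41.7 and 96.0 CPM in GFP-negative cells. It was 23.5-fold lower (19.2 to 29.1) in CTR GFP-positive cells and 6.40-fold lower (5.45 to 7.56) with RA. LAMA1, the α chain of the first embryonic basement membranes, had 110 and 83.3 CPM in GFP-positive and 178 and 249 CPM in GFP-negative cells. Its ratio passed 2-fold in CTR, 2.98-fold lower (2.78 to 3.20), and was 1.61-fold lower (1.54 to 1.69) with RA.

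LAMA2 and LAMA4 departed from this pattern. LAMA2, the muscle laminin chain whose loss causes congenital muscular dystrophy, had 202 and 236 CPM in GFP-positive cells and 109 and 180 CPM in GFP-negative cells, RA first. Both GFP-positive libraries were above both GFP-negative libraries, by 1.31-fold (1.22 to 1.41) in CTR and 1.85-fold (1.76 to 1.93) with RA, below the 2-fold limit. LAMA4, the chain of vascular and mesenchymal basement membranes, had 34.5 CPM in RA-treated and 84.3 CPM in CTR GFP-positive cells, and 107 and 70.1 CPM in GFP-negative cells. The 4 libraries thus crossed: with RA it was 3.09-fold lower (2.87 to 3.33) in GFP-positive cells, and in CTR it was 1.20-fold higher (1.07 to 1.35).

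LAMC1, the γ chain of most laminins, was lower in GFP-positive cells. It had 500 and 410 CPM in GFP-positive and 983 and 1282 CPM in GFP-negative cells, RA first, which was 3.13-fold (3.03 to 3.23) lower in CTR and 1.97-fold (1.93 to 2.01) lower with RA. LAMC3 had 34.9 and 17.9 CPM in GFP-positive and 101 and 46.6 CPM in GFP-negative cells, so that both RA-treated libraries were above the CTR library of their fraction. It was 2.61-fold (2.22 to 3.06) lower in CTR GFP-positive cells and 2.90-fold (2.69 to 3.13) lower with RA.

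Of the laminin-binding α subunits, ITGA7 was higher and ITGA3 and ITGA6 were lower in GFP-positive cells. ITGA7, the laminin receptor of muscle, had 143 and 87.8 CPM in GFP-positive and 52.5 and 41.5 CPM in GFP-negative cells, RA first. It was 2.11-fold (1.83 to 2.46) higher in CTR GFP-positive cells and 2.72-fold (2.56 to 2.90) higher with RA. ITGA3, an epithelial receptor, had 152 and 136 CPM in GFP-positive and 333 and 540 CPM in GFP-negative cells, 3.97-fold (3.78 to 4.17) lower in CTR and 2.19-fold (2.11 to 2.27) lower with RA. ITGA6, the hemidesmosome subunit, had 12.0 and 6.70 CPM against 27.0 and 45.6 CPM, 6.80-fold (5.57 to 8.31) lower in CTR and 2.24-fold (1.96 to 2.56) lower with RA. ITGA7 made up 18.0% and 15.2% of the α signal per kb of annotated exon in GFP-positive cells, RA first, and 3.85% and 3.14% in GFP-negative cells. Per kb of annotated exon its signal was 1.01 and 0.697 times that of ITGA3 in GFP-positive cells, RA first, and 0.171 and 0.0831 times in GFP-negative cells.

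**Figure D3:**
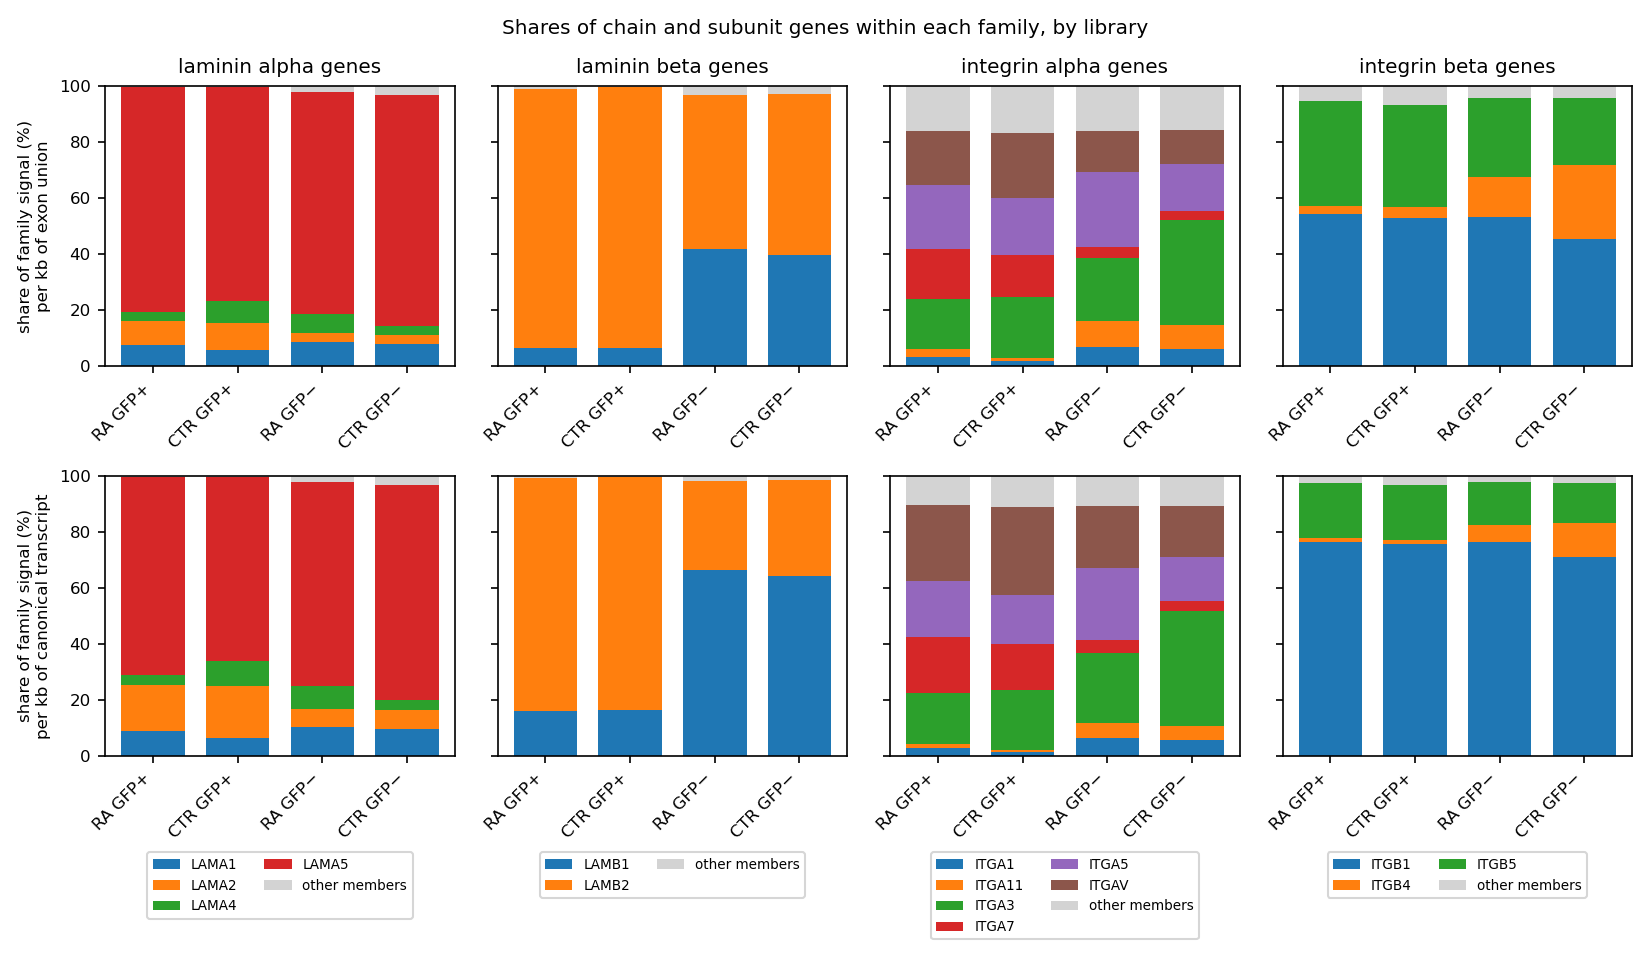
Stacked bars of the share (percent) that each gene takes of its family's reads per kb in each library, per kb of annotated exon (upper row) and per kb of canonical transcript (lower row). LAMB1 takes 6.47% and 6.64% of the β signal in GFP-positive cells in the upper row and 41.8% and 39.6% in GFP-negative cells, LAMA5 takes most of its family in every bar, and ITGA7 takes a larger share in GFP-positive cells.

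The collagen-binding α subunits were lower in GFP-positive cells with 1 exception. ITGA1 had 51.3 and 20.9 CPM in GFP-positive and 188 and 163 CPM in GFP-negative cells, 7.79-fold (6.99 to 8.69) lower in CTR and 3.66-fold (3.44 to 3.89) lower with RA. ITGA11, a fibroblast collagen receptor, had 28.4 and 6.80 CPM against 152 and 134 CPM, 19.7-fold (16.8 to 23.3) lower in CTR and 5.36-fold (4.96 to 5.80) lower with RA. ITGA2, also a platelet and epithelial collagen receptor, had 6.47 and 4.64 CPM against 18.0 and 17.2 CPM, 3.72-fold (2.78 to 4.94) and 2.78-fold (2.33 to 3.33) lower. ITGA10, known from cartilage, had 17.7 and 18.5 CPM in GFP-positive and 7.37 and 9.16 CPM in GFP-negative cells. It was 2.41-fold (2.03 to 2.86) higher in GFP-positive cells with RA and 2.02-fold (1.48 to 2.83) higher in CTR, where the difference on the log2(CPM + 1) scale, 0.94, was under the limit. ITGA1 and ITGA2 lie 30.1 kb apart on chromosome 5.

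The α subunits that read the RGD motif of fibronectin and vitronectin differed less, apart from ITGA8. ITGAV had 328 and 285 CPM in GFP-positive and 421 and 345 CPM in GFP-negative cells, RA first, which was 1.21-fold (1.15 to 1.28) lower in CTR and 1.28-fold (1.25 to 1.32) lower with RA. ITGA5, the fibronectin receptor subunit, had 146 and 95.4 CPM against 300 and 178 CPM, 1.87-fold (1.73 to 2.02) and 2.05-fold (1.97 to 2.13) lower. ITGA8, the receptor of nephronectin in mesenchyme, had 8.34 and 3.00 CPM against 48.1 and 27.3 CPM, 9.08-fold (6.86 to 12.1) and 5.77-fold (5.001 to 6.69) lower. ITGA2B, the platelet subunit, had 8.71 and 12.4 CPM in GFP-positive and 11.1 and 15.1 CPM in GFP-negative cells, with no difference past 2-fold. The 5 megakaryocyte and platelet markers summed to between 2.07 and 4.68 CPM, and PPBP, a defining one, was at 0 in every library.

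ITGA4 and ITGA9 form the subfamily that binds fibronectin splice forms, VCAM1 and osteopontin. ITGA4 had 2.92 and 0.21 CPM in GFP-positive and 21.7 and 4.47 CPM in GFP-negative cells, RA first, and was 7.44-fold (5.86 to 9.56) lower in GFP-positive cells with RA. In CTR it reached 10 CPM in neither fraction, with 6 and 21 reads. ITGA9 had 30.0 and 11.3 CPM against 31.8 and 16.0 CPM, so that the 2 fractions were close with RA, at 1.06-fold lower (0.96 to 1.17).

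Of the β subunits, ITGB1, the partner of most of the α subunits above, had 415 and 316 CPM in GFP-positive and 628 and 464 CPM in GFP-negative cells, RA first. It was 1.47-fold (1.40 to 1.54) lower in CTR GFP-positive cells and 1.51-fold (1.48 to 1.55) lower with RA. ITGB1 led the β subunits in every library, with 45.4% to 54.4% of their signal per kb of annotated exon and 71.1% to 76.5% per kb of canonical transcript. ITGB4, the hemidesmosome partner of ITGA6, had 10.1 and 10.3 CPM in GFP-positive and 78.0 and 125 CPM in GFP-negative cells, 12.1-fold (10.5 to 14.0) lower in CTR and 7.72-fold (6.80 to 8.80) lower with RA. ITGB8, which with αV activates TGF-β, had 7.18 and 2.51 CPM against 21.5 and 22.1 CPM, 8.81-fold (6.47 to 12.1) and 2.99-fold (2.53 to 3.54) lower. ITGB5 and ITGB3, the vitronectin receptor β subunits, did not pass 2-fold between fractions. ITGB5 had 127 and 97.5 CPM against 150 and 109 CPM, and ITGB3 had 14.1 and 13.2 CPM against 11.0 and 8.31 CPM.

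RA-treated GFP-positive cells had more ITGA11, ITGA9 and ITGA1 and less LAMA4 than CTR GFP-positive cells. Of 23 members at 10 CPM, 3 were higher by at least 2-fold, against 4.14% of 11186 genes, and 1 was lower, against 1.67%. ITGA11 was 4.17-fold (3.56 to 4.91) higher, ITGA9 was 2.64-fold (2.32 to 3.02) higher and ITGA1 was 2.46-fold (2.23 to 2.71) higher. LAMA4 was 2.44-fold (2.26 to 2.64) lower. Just under the limit, LAMC3 was 1.95-fold (1.75 to 2.18) higher. Of the 23 genes, 18 had a higher and 5 a lower value with RA, and the median difference was 0.20 on the log2(CPM + 1) scale, beside 0.02 over all genes. By family, the median was 0.61 over 11 α subunits, 0.23 over 4 β subunits and 0.19 over 8 laminin chains. The laminin receptor of muscle, ITGA7, was 1.63-fold (1.55 to 1.71) higher, and its partner ITGB1 was 1.31-fold (1.28 to 1.35) higher.

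Beside the collagen receptors, all 9 fibroblast and smooth muscle markers were higher by at least 2-fold in RA-treated GFP-positive cells, with a median difference of 1.96 on the log2(CPM + 1) scale. Their summed level was 15749 CPM against 4129 CPM. The part of these markers in the higher values of ITGA1, ITGA11 and ITGA9 was not tested. In the same comparison all 5 epithelial markers had higher values with RA, 2 of them by at least 2-fold, and they summed to 580 and 499 CPM. The 5 gut and liver endoderm markers summed to 37.1 and 10.1 CPM and the 5 neural markers to 416 and 276 CPM, and in each list 1 of 2 genes at 10 CPM was at least 2-fold higher. In other lists most genes were lower with RA. Of the 6 cardiomyocyte markers, 5 had lower values, 1 by at least 2-fold, with a median of -0.27 on the log2(CPM + 1) scale. Of 3 epicardium markers at 10 CPM, 2 were lower and 1 higher by at least 2-fold, with sums of 66.4 CPM with RA and 57.3 CPM without. Both pigment cell and neural crest markers at 10 CPM had lower values, under 2-fold. The part of all these markers in the member values, among them the lower LAMA4 and the 1.80-fold (1.498 to 2.16) higher value of ITGA6, was not tested. Endothelial markers, which go with LAMA4 in vessels, summed to 17.2 CPM with RA and 16.9 CPM in CTR GFP-positive cells. Of the 6, 1 reached 10 CPM there, KDR, with 9.68 and 14.8 CPM, named after its values were seen. The other endothelial markers, all under 10 CPM, together had a higher sum with RA. The part of the endothelial markers in the lower value of LAMA4 was not tested. Lowering the limit to 1 CPM, or dropping it, raised the count from 4 to 7 members, and thinning to the depth of the smallest library gave 5 higher members instead of 3. The added genes at 1 CPM were low and all higher with RA: ITGA4 at 2.92 against 0.21 CPM, ITGA8 at 8.34 against 3.00 CPM and ITGB8 at 7.18 against 2.51 CPM.

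ITGA11 and LAMA4 had the largest difference in each direction among the members at 10 CPM in GFP-positive cells, so the 250 bases before their RefSeq starts (GRCh38.p14) are shown.
ITGA11, chr15:68432164-68432413, minus strand: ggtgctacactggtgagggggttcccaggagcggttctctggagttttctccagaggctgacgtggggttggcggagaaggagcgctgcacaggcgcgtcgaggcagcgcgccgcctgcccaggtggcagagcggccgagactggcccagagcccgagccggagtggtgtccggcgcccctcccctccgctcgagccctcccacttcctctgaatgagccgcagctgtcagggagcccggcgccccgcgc
LAMA4, chr6:112254568-112254817, minus strand: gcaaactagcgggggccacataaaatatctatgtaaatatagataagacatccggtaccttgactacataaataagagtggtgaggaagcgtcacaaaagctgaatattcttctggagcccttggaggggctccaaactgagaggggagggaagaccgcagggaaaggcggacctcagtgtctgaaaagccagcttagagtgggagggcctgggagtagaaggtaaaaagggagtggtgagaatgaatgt
Neither window held any of the 4 motifs searched above on either strand, so no base is in capitals. The GC content was 71.2% for ITGA11 and 48.4% for LAMA4. On GRCh37 the genes lie on the minus strand of chr15:68588870-68724502 and of chr6:112429134-112576141.

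In GFP-negative cells RA went with more ITGA4 and LAMC3 and with less LAMA3. Of 28 members at 10 CPM, 2 were higher by at least 2-fold, against 4.95% of 11606 genes, and 1 was lower, against 3.18%, so that both shares were near the background. ITGA4 had 557 reads (21.7 CPM) with RA and 21 reads (4.47 CPM) without, and was 4.85-fold (3.14 to 7.90) higher. LAMC3 was 2.17-fold (1.89 to 2.51) higher, and LAMA3 was 2.31-fold (2.06 to 2.58) lower. LAMC3 fell under 2-fold by 3 of 8 other ways of scaling, depth or pseudocount. ITGA9 lay at the limit, 1.99-fold (1.57 to 2.56) higher. The median over the 28 genes was 0.11 beside 0.08 over all genes, with 16 genes higher and 12 lower. Its sign turned with scaling by library size alone, where it was -0.015.

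Members under the 2-fold limit lay on both sides of equality with RA in GFP-negative cells. ITGA3, ITGA6 and ITGB4 were 1.62-fold (1.55 to 1.70), 1.69-fold (1.44 to 1.97) and 1.61-fold (1.47 to 1.76) lower. LAMA5, LAMA2 and LAMA1 were 1.58-fold (1.55 to 1.62), 1.64-fold (1.52 to 1.78) and 1.40-fold (1.31 to 1.49) lower. The ratio of LAMB1 was 1.03 (1.005 to 1.06) and that of LAMB3 1.13 (0.92 to 1.40), and the direction of each turned under other scaling or thinning. In the same cells all 5 epithelial markers had higher values with RA, and they summed to 2257 CPM with RA and 1321 CPM without. The 5 pigment cell and neural crest markers summed to 70.8 CPM with RA and 602 CPM without, and the 5 gut and liver endoderm markers to 635 and 81.6 CPM. All 6 cardiomyocyte markers had lower values with RA, 3 of them by at least 2-fold, with a median of -1.15 on the log2(CPM + 1) scale. All 5 epicardium markers had lower values, 1 by at least 2-fold, with sums of 342 and 574 CPM, and 4 of 5 neural markers had lower values, 3 by at least 2-fold, with sums of 252 and 327 CPM. Their part in these differences was not tested. On the other side, the fibronectin receptor ITGA5 was 1.68-fold (1.57 to 1.81) higher, ITGA8 was 1.77-fold (1.47 to 2.14) higher and LAMA4 was 1.52-fold (1.36 to 1.71) higher. Beside these, all 9 fibroblast and smooth muscle markers had higher values with RA, 4 of them by at least 2-fold. Their median was 0.97 on the log2(CPM + 1) scale and their sum 62781 against 32768 CPM. Of 5 endothelial markers at 10 CPM, 4 had higher values with RA, 1 by at least 2-fold, and 1 a lower value, while the list summed to 288 and 300 CPM. The 3 pluripotent markers summed to 27.1 CPM with RA and 2.13 CPM without, and the 8 leukocyte markers to 46.5 and 12.1 CPM. The part of all these markers in the higher member values was not tested. By family, the median was 0.20 over 13 α subunits, 0.36 over 5 β subunits and -0.24 over 10 laminin chains, on the log2(CPM + 1) scale.

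**Figure D4:**
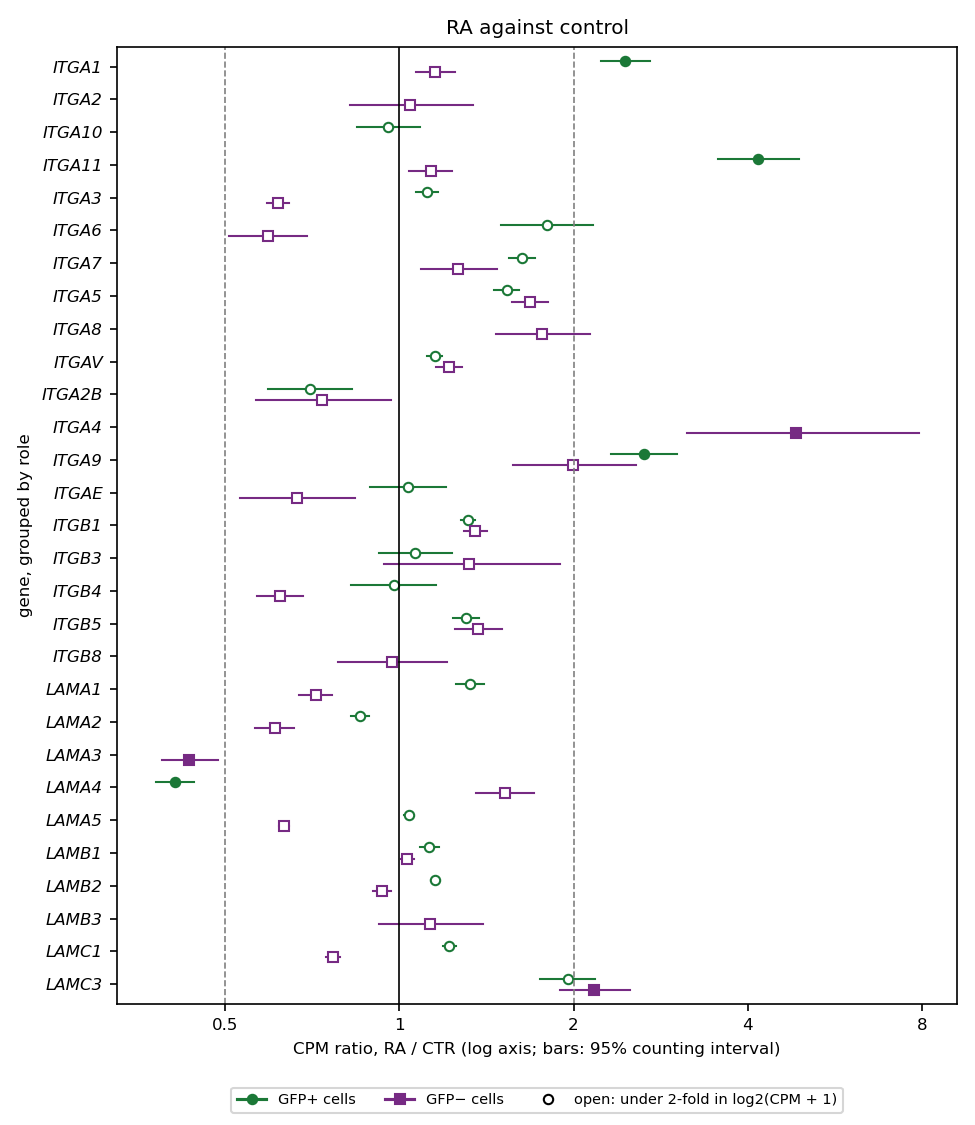
CPM ratio of RA-treated to CTR cells (log axis) for the genes at 10 CPM or more, in the GFP-positive (circles) and GFP-negative (squares) fraction, with 95% counting intervals. Filled symbols passed 2-fold on the log2(CPM + 1) scale, dashed lines mark ratios of 0.5 and 2, and LAMA4 lies at 0.41 among the circles and 1.52 among the squares.

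Some genes lay on opposite sides of equality in the fractions. The RA comparisons of the fractions share no library, but both fractions were sorted from the same cultures and do not replicate each other. The difference of log2(CPM + 1) with RA was -1.26 (positive fraction) and 0.60 (negative fraction) for LAMA4, and 0.76 and -0.74 for ITGA6. ITGA3 had 0.16 and -0.70, LAMA1 0.40 and -0.48, and LAMC1 0.29 and -0.38. LAMB2 had 0.20 and -0.10, and LAMA5 had 0.05 and -0.66, where the first turned to -0.02 with scaling by library size alone. For these 7 genes the counting intervals excluded equality in each fraction, but with 1 library per condition no test of this was possible. By contrast, ITGAV, ITGB1, ITGB5, ITGA5 and ITGA7 were between 1.15-fold and 1.68-fold higher with RA in both fractions.

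Of the genes that work with integrins and laminins, the other integrin ligands differed most often with RA. In GFP-positive cells 9 of 13 measured ligands were higher and 2 lower by at least 2-fold, against 4.14% and 1.67% of all genes tested, with a median of 1.32 on the log2(CPM + 1) scale beside 0.02 over all genes. In GFP-negative cells 4 of 14 were higher and 0 lower, against 4.95% and 3.18%, with a median of 0.68 beside 0.08. COL1A1, COL1A2 and COL3A1 stand in both this list and the fibroblast list. FBN1, the fibrillin of elastic microfibrils, had 236 and 36.1 CPM in GFP-positive cells, 6.55-fold (6.13 to 7.00) higher with RA. SPP1, osteopontin, a ligand of the ITGA4 and ITGA9 receptors, had 13.7 and 1.68 CPM, 8.17-fold (6.04 to 11.3) higher, and in GFP-negative cells 80.8 and 17.9 CPM, 4.52-fold (3.63 to 5.69) higher. VTN, vitronectin, had 52.6 and 7.24 CPM in GFP-negative cells, 7.26-fold (5.17 to 10.5) higher with RA. The lower ligands in GFP-positive cells, named after their values were seen, were NPNT, the nephronectin bound by ITGA8, and VCAM1, bound by ITGA4, with differences of -1.92 and -1.08 on the log2(CPM + 1) scale.

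In the other partner lists at most 1 gene passed 2-fold in each direction, set against the same shares of all genes, 4.14% higher and 1.67% lower in GFP-positive and 4.95% and 3.18% in GFP-negative cells. Nothing is read from counts of 1. Among 10 measured basement membrane partners, which are type IV, XV and XVIII collagens, nidogens, perlecan and agrin, 1 was higher in GFP-positive cells. It was COL15A1, with 37.5 and 7.22 CPM, 5.19-fold (4.47 to 6.06) higher with RA. In GFP-negative cells 1 of 10 was lower, COL4A6, with a difference of -1.13 (log2 scale), named after its value was seen. Of the adhesion adaptors such as talin, vinculin and kindlin, 1 of 18 was higher in GFP-positive cells (TNS3, 1.65 on the log2 scale, named after its value was seen) and 0 of 17 passed in GFP-negative cells. Among non-integrin laminin receptors, 1 of 7 was higher and 1 lower in GFP-positive cells (SGCD, 2.22, and SGCE, -1.25, log2 scale, named after their values were seen) and 1 of 8 was higher in GFP-negative cells. That was the sarcoglycan SGCD, with 30.2 and 9.58 CPM, 3.16-fold (2.34 to 4.36) higher. Of the 6 lateral partners, tetraspanins and CD47, 0 passed in GFP-positive cells and 1, CD47, was lower in GFP-negative cells with a difference of -1.03 (log2 scale), named after its value was seen.

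**Figure D5:**
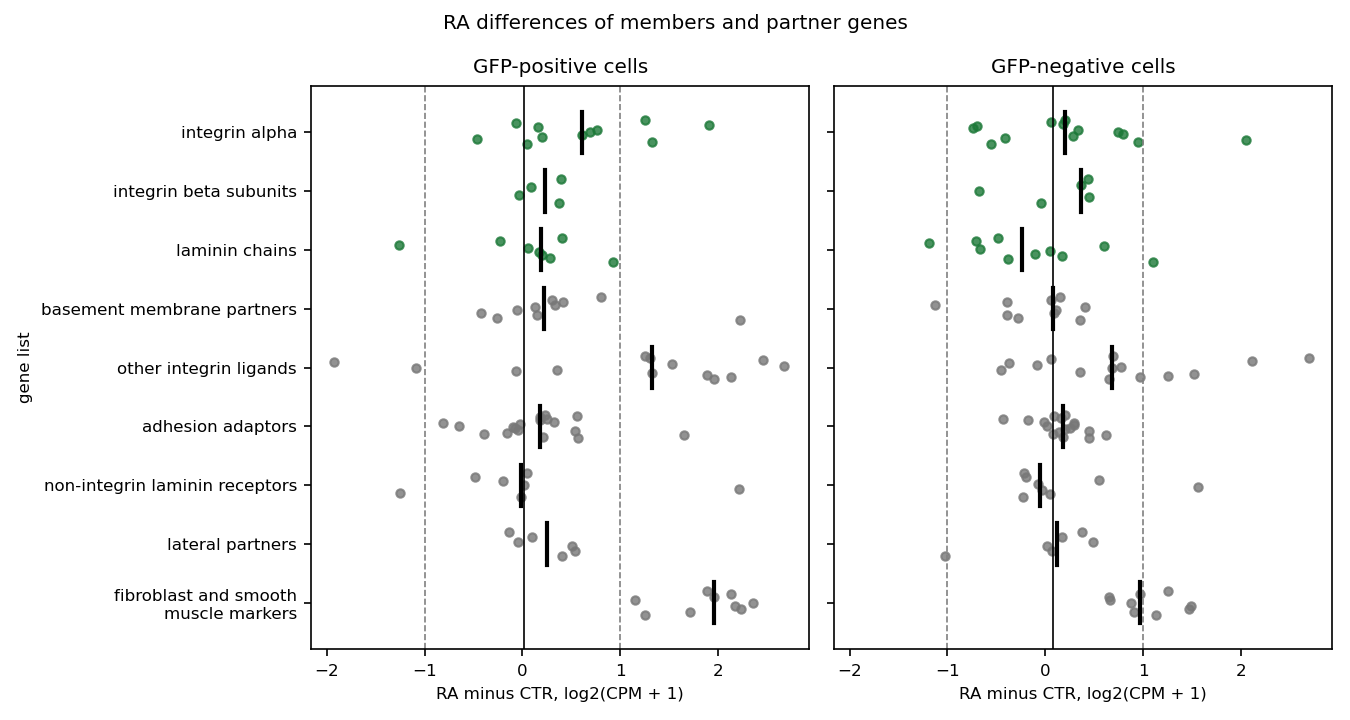
Difference of log2(CPM + 1) with RA (x axis) for the member genes (green) and partner or marker genes (grey) at 10 CPM or more, by list, in GFP-positive (left) and GFP-negative cells (right). Thick bars are list medians, the thin line is the median of all genes and dashed lines mark 2-fold; the fibroblast markers have medians of 1.96 and 0.97, and the laminin chains 0.19 and -0.24.

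In every library 7 of the 36 genes stayed below 10 CPM, the leukocyte integrins ITGAD, ITGAL, ITGAM, ITGAX, ITGB2 and ITGB7 and the laminin chain LAMB4. ITGAL had 3 reads in the GFP-positive library with RA and 0 in the others, and ITGAM had 6 reads in RA-treated GFP-negative cells and 0 elsewhere. A count of 0, taken as at most 3 reads, allows up to 0.112 CPM in RA-treated and 0.105 CPM in CTR GFP-positive cells, and 0.117 and 0.639 CPM in the GFP-negative cells, for counting error only. ITGB2, the shared leukocyte β subunit, had 28 and 12 reads in GFP-positive and 57 and 6 reads in GFP-negative cells, RA first. ITGAX had 8, 28, 7 and 7 reads and ITGAD 6, 10, 6 and 5 reads in the same order. The leukocyte marker PTPRC had 0 reads in GFP-positive cells, and the 8 leukocyte markers summed to between 2.65 and 46.5 CPM, of which LYZ gave the most in RA-treated GFP-negative cells. ITGB7 had 26, 74, 18 and 3 reads. ITGAE, the epithelium-homing α subunit, stood apart from the other leukocyte α genes with 12.9 and 12.4 CPM in GFP-positive and 14.0 and 21.1 CPM in GFP-negative cells, with no difference past 2-fold.

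Some of these values are uncertain because the genes share exon bases with others and reads were counted without strand. The shared part of the annotated exons was 42.3% in ITGB7, with ZNF740, 33.2% in ITGB3, with an unnamed gene on the same strand, and 26.4% in ITGA4, with CERKL. It was 13.2% in ITGA1, whose span holds PELO, and 11.1% in LAMA1. No base was shared in 14 members, among them ITGA11, LAMA3, LAMB2 and LAMC3. ITGB1 has a processed pseudogene, and reads with no unique place were left out of the counts.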

How the data were processed

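RNA sequencing of 4 sorted populations was analysed, with 1 library per condition. The authors aligned 75 bp reads with GSNAP to a custom hg19 genome, keeping reads with a single position, sorted the alignments with SAMtools 0.1.18 and counted reads per Ensembl gene with HTSeq 0.6.1p1, ignoring strand. The authors deposited these counts unscaled. For the changes to hg19 and the Ensembl release, no value was given in the sources used here.

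Identifiers were matched to GENCODE release 44 lifted to GRCh37 (55538 of 60234 matched), and promoter sequences came from RefSeq (GRCh38.p14). The builds were not converted into each other. Counts were scaled with TMM factors (edgeR 4.0.16, R 4.3.3), 0.951, 1.00, 0.979 and 1.07 for RA-treated GFP-positive, CTR GFP-positive, RA-treated GFP-negative and CTR GFP-negative cells. Mitochondrial genes took 14.9%, 14.1%, 5.56% and 7.48% of the reads, in the same order. Differences were taken on log2(CPM + 1), so that those of low genes are understated. No test was made, and no p-value is given. Ratios carry 95% Clopper-Pearson intervals, for counting error only, as amplified reads are not independent molecules. A count of 0 stayed 0 in CPM and in differences, and 3 reads were taken only as the limit that it allows. Shares were taken from reads per kb of the union of annotated exons.

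Every member at 10 CPM in any library was given with its values, the others by read counts, and of the partner genes the 3 largest RA differences per fraction; other partner genes past 2-fold were named after their values were seen. Other genes of these families are not reported here, and the shares within families are shares among the genes analysed. The members and lists were chosen with earlier results of these data known. Alternatives were library size alone, DESeq2 1.42.0 size factors, upper quartile, pairwise TMM, library size without mitochondrial and the top 10 genes, a pseudocount of 0.25 or 5, thinning to 4371101 reads, filters of 1 CPM and none, and shares without length. Shares by canonical transcript length were added after seeing the data. The procedure was tested on simulated data. Figures used matplotlib 3.10.9 in Python 3.11.15.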

Additional observations from a re-analysis of the deposited data

Results flagged for a closer look

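Some genes had RA differences of opposite sign in the sorted fractions, a gap that was not tested, as each condition has 1 library. On the log2(CPM + 1) scale, the RA difference in GFP-positive minus that in GFP-negative cells was -1.863 for LAMA4, 1.496 for ITGA6, 0.8811 for LAMA1, 0.8565 for ITGA3, 0.7156 for LAMA5, 0.6693 for LAMC1 and 0.3049 for LAMB2. LAMA4 was also higher in GFP-positive than GFP-negative cells in CTR (0.26) and lower with RA (-1.60), a gap of 1.863 that uses the same 4 values. Of these genes, LAMA5 in GFP-positive cells was the only one whose sign turned under an alternative, from 0.05 to -0.02 with scaling by library size alone.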

How the results depend on the processing

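Every one of the 40 member differences past 2-fold kept its direction under all 8 alternatives of scaling, pseudocount and depth, and 260 of 320 values stayed within their counting intervals. Of 68 smaller differences, 7 changed sign. The count of members past 2-fold with RA in GFP-positive cells went from 4 to 7 at 1 CPM and to 7 without a filter. The median RA difference of the members in GFP-negative cells reversed from 0.11 to -0.015 with library size alone and to -0.0036 without mitochondrial and the 10 most abundant genes. The median between the fractions in CTR moved from -1.29 to -1.39 with library size alone. Scaling by library size alone shifted the median of all genes by -0.13 in the RA comparison of GFP-negative cells and by -0.10 between the fractions in CTR, and leaving out mitochondrial and top genes shifted the former by -0.12. LAMC3 with RA in GFP-negative cells, and ITGA7 between the fractions in CTR, passed 2-fold under 5 of 8 alternatives, down to 0.94 and 0.91 on the log2 scale. ITGA10 and ITGA6 between the fractions with RA passed under 7 and ITGA5 under 6. The gene with the top share turned in 4 of 16 combinations of family and library with no division by length, and in 3 with the canonical transcript length, chosen after seeing the data. LAMB1 passed LAMB2 in both GFP-negative libraries under each, and ITGAV passed ITGA5 in RA-treated GFP-positive cells under each and led in RA-treated GFP-negative cells with no division by length. The CTR GFP-negative library, with 4371101 reads, limits what the GFP-negative comparisons can resolve. An additive fit of culture and sorted fraction, which would take how far the fraction difference varies between the cultures as its error, was not run, and the fractions were compared within each culture. Leaving out a replicate was not possible with 1 library per condition.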
